A study of Mus musculus with 15 samples.

Results

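The genes described here are 34 genes of glycolysis and of the cellular response to low oxygen, measured by RNA sequencing in mouse microglia, the resident macrophages of the brain, after an ischemic stroke. They were taken as a list of gene symbols, put together with earlier results of these data known, and all 34 symbols were found among the 24421 gene rows of each of 3 deposited count tables. The microglia were sorted by intermediate staining for CD45 and CD11b from male mice of 8 to 24 weeks. The stroke was a 60 minute occlusion of the middle cerebral artery followed by reperfusion.

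Wild-type C57BL/6J mice gave 1 library after sham surgery and 1 each on days 1, 6, 14 and 28 after stroke. Igf1-Egfp transgenic mice, which carry a fluorescent reporter of the growth factor gene Igf1, gave an EGFP-negative and an EGFP-positive library for each of 2 days after stroke, 6 and 14. A further 3 libraries of day 6 came from Yy1flox/flox mice, whose alleles of the transcription factor gene Yy1 are flanked by loxP sites but which carry no Cre, and 3 from Cx3cr1-CreER;Yy1flox/flox mice. The Yy1 mice of both genotypes had a stroke and carried the floxed alleles, so no Yy1 library represents an uninjured brain. The Cx3cr1 promoter is active in microglia and in other mononuclear phagocytes, and CreER acts once a ligand of the estrogen receptor is given. The dosing of such a ligand, and whether several mice were pooled in a library, were not given in the sources used here.

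Glycolysis splits glucose into pyruvate in the cytosol. Glucose enters through transporters such as GLUT1 (Slc2a1), is trapped by hexokinases, and is carried to pyruvate by a chain of enzymes that ends in pyruvate kinase. Lactate dehydrogenase turns pyruvate into lactate, and pyruvate dehydrogenase kinases block pyruvate dehydrogenase, the enzyme that takes pyruvate towards the citric acid cycle. The transcription factor subunit HIF-1α (Hif1a) is hydroxylated by prolyl hydroxylases (Egln1, Egln3) while oxygen is present and is then marked for degradation by the von Hippel-Lindau protein (Vhl). When oxygen falls it persists and binds hypoxia response elements near many glycolytic genes, and activated macrophages are known to use the same genes when they turn to glycolysis.

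The hypoxia response element has the core ACGTG or GCGTG, which was searched on both strands in the RefSeq promoter windows of build GRCm38.p6, each running from 250 bases before to 50 bases after an annotated gene start. RefSeq windows were matched for 31 of the 34 genes (Ero1l under its current symbol Ero1a), and Slc2a3, Bnip3l and Ndrg1 were not matched. The core was in 36 of the 45 member windows (80%), and 28 of the 31 matched genes had it in at least 1 window. Among all 32851 windows of these lengths, 43.8% held it, and among the 21262 windows of protein-coding genes 49.3% did. The motif GCCATNTT, the core bound by YY1, was in 2 member windows (4.44%), both of Pfkm, against 6.05% of all windows. The 2 motifs share no letters that would let one match contain the other. A match describes the letters in a window and shows no binding.

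The 250 bases before the start are given for the first listed window of 6 genes. Hk2, Hk3, Ldha and P4ha1 are the members called in the Yy1 comparison, and Pgk1 and Slc2a1 are an enzyme and a transporter with large differences over the wild-type days. Capitals mark matches to the hypoxia response element core on either strand, and each sequence runs 5′ to 3′ on the strand of its gene.
Hk2 (chr6:82774455-82774704, - strand): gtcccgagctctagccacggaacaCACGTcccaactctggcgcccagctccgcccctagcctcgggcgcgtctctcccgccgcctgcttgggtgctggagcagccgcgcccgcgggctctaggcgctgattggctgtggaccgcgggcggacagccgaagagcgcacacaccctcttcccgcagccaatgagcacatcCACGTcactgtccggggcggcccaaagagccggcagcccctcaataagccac
Hk3 (chr13:55021386-55021635, - strand): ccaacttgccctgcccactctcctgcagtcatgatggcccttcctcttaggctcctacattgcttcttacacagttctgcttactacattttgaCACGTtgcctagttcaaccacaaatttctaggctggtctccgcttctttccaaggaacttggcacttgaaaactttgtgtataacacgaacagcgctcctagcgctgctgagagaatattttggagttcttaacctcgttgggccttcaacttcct
Ldha (chr7:46845554-46845803, + strand): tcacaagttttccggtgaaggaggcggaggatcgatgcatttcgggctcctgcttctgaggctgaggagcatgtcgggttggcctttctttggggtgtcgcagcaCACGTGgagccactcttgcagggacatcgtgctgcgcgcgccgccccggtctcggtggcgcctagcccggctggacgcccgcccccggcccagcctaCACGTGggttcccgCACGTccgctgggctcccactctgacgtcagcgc
P4ha1 (chr10:59323046-59323295, + strand): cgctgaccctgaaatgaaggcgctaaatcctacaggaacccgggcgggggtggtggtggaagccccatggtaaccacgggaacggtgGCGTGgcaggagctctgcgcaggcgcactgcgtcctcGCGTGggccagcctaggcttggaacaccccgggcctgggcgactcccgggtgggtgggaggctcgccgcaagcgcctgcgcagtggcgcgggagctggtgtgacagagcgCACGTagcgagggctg
Pgk1 (chrX:106186850-106187099, + strand): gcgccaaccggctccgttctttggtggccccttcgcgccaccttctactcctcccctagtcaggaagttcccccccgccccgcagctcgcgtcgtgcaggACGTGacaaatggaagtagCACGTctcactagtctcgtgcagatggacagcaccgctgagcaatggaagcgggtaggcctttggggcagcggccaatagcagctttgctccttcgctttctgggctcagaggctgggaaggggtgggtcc
Slc2a1 (chr4:119108495-119108744, + strand): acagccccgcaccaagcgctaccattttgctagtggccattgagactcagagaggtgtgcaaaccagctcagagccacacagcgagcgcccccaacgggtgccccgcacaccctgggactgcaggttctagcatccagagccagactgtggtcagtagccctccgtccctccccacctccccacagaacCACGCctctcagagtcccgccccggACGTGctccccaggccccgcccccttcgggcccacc
Runs of capitals number 2 in Hk2, 1 in Hk3, 3 in Ldha, 3 in P4ha1, 2 in Pgk1 and 2 in Slc2a1, and 2 of those of Ldha are the palindrome CACGTG, which holds the core on both strands.

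Library totals, in units of 1e6 counts, lay between 16.8 and 52.6 where the wild-type days share a table with the day 6 EGFP states. They were 23.1 and 24.6 for the day 14 EGFP states and 10.5 to 13.9 for the Yy1 libraries. Levels are given as CPM, counts per 1e6 after TMM scaling within each table, and are not compared between tables. Of the 10 microglial marker genes fixed for this work, 0 were at 0 counts in any library. Their summed level was highest in sham, at 35422 CPM, and was 9024, 18699, 10839 and 16928 CPM on days 1, 6, 14 and 28. Igf1 was at 49.5 CPM in the EGFP-negative and 813 CPM in the EGFP-positive library on day 6 and at 11.1 and 33.5 CPM on day 14, in the direction of the labels. The day 28 library lacked many transcripts: of 6307 genes that reached 20 CPM in sham, 10.1% were under 1 CPM there, against 2% in the day 14 library and 0% on days 1 and 6.

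In the wild-type time course 5 of 8 genes of upper glycolysis and all 4 detected genes of lower glycolysis were higher on day 1, the transporters Slc2a1 and Slc16a1 were near 0 on day 28, and Ldha, Hif1a and Ndrg1 were higher than in sham on all 4 days. Each time point is 1 library, so no difference between days has a replicate check and no p-value is given. A gene was counted as higher or lower where the log2 ratio of CPM plus 1 was at least 1 in size and the gene had at least 20 CPM in 1 of both libraries. On day 1, 16 of the 34 genes were higher than in sham and 2 were lower (29 reached 20 CPM), while among all 7203 genes at that level 12.5% were higher and 10.6% lower. The median log2 ratio of the 33 members with counts was 1.05, against -0.00 for all genes at that level. On day 6, 6 members were higher and 0 lower (26 reached 20 CPM), against 10.6% and 2.9% of genes, with a median of 0.68 against -0.09. On day 14, 9 were higher and 5 lower (27 reached 20 CPM), against 22.6% and 20.2%, with a median of 0.42 against -0.03. On day 28, 7 were higher and 7 lower (28 reached 20 CPM), against 27% and 24%, with a median of -0.03 against 0.15. The members' count stood furthest above the share of all genes on day 1 in the higher direction. On day 28, 7 of the 28 members at 20 CPM in each direction were near the share of all genes. Over the 5 wild-type libraries, 10 of 33 members had their highest level on day 1, 7 each on days 6 and 14, 5 on day 28 and 4 in sham, and 12 had their lowest level in sham.

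**Figure D1:**
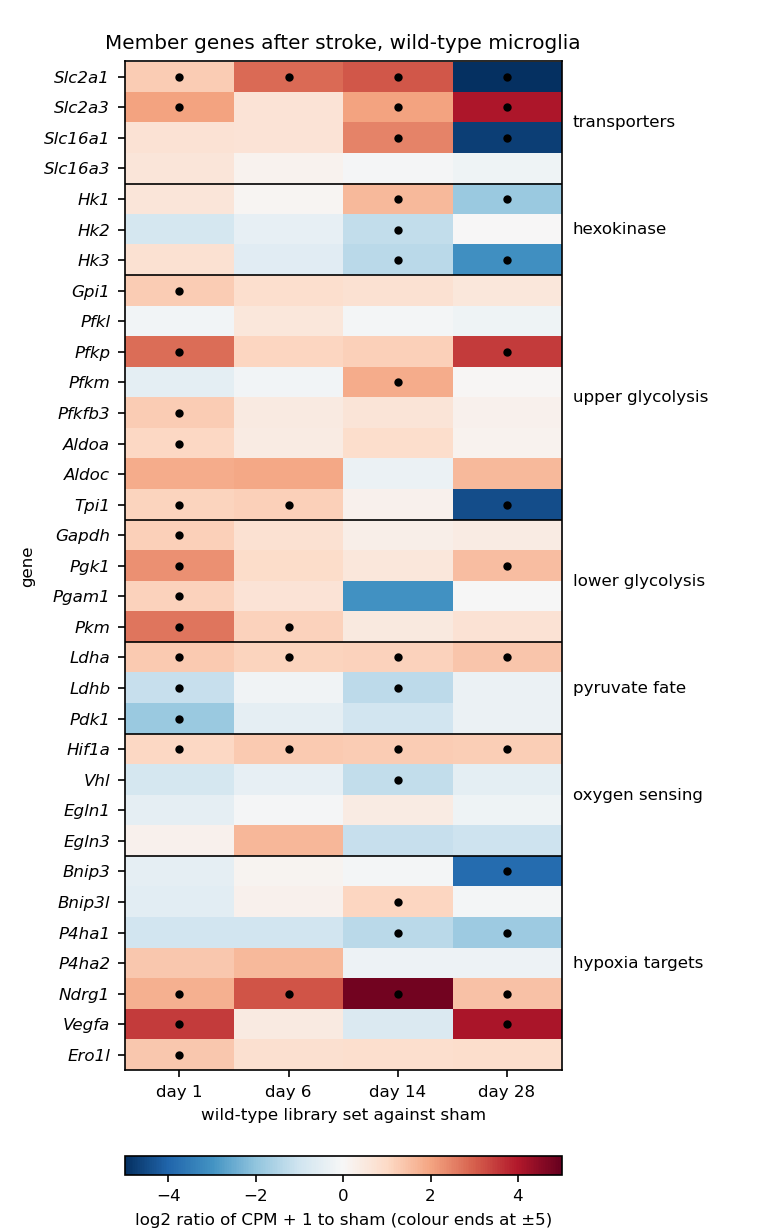
Heat map of 33 member genes (rows, grouped by role) in the wild-type libraries of days 1, 6, 14 and 28 (columns), coloured by the log2 ratio of CPM plus 1 to sham. Black points mark genes past the size rule, 16 higher and 2 lower on day 1, and Eno1, at 0 counts in all 5 libraries, is left out.

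Markers of microglia and of other cells moved with these libraries. By the size rule 9, 4, 10 and 7 of the 10 microglial markers were lower than in sham on days 1, 6, 14 and 28, and 0 were higher. Neutrophil markers summed to 50.5 CPM in sham and to 2259, 391, 11.1 and 2383 CPM on days 1, 6, 14 and 28. Of the 11 listed neutrophil markers, 8 passed the size rule as higher on day 1 and 5 on day 28, and on day 14 7 of them were at 0 counts. Monocyte markers summed to 64.3 CPM in sham and to between 1492 and 2327 CPM after stroke, largely from Fn1 on days 6 and 14. Endothelial and mural markers of vessels summed to 283 CPM in sham and to 728, 3384, 6550.2 and 31.3 CPM on days 1, 6, 14 and 28. Dendritic cell markers summed to 16.2 CPM in sham and 486 CPM on day 28, when 5 of 8 were higher. In the comparisons of days 1, 6 and 14, 0 of them reached 20 CPM, so none could pass the rule. Genes known to be induced by tissue dissociation summed to 9711 CPM in sham, 15872 CPM on day 14, when 7 of 12 were higher and 1 lower, and 22796 CPM on day 28, when 9 of 12 were higher. The part of these genes in the differences of the members was not tested. In bulk samples, fewer cells of a type and less RNA per cell cannot be told apart.

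The 4 transporters differed in how far they ranged. Slc2a1, which encodes GLUT1, the glucose transporter of the blood-brain barrier and of many other cells, was at 67.3 CPM in sham and 164, 481, 587 and 0.614 CPM on days 1, 6, 14 and 28. Its log2 ratios to sham were 1.27, 2.82, 3.10 and -5.40, the day 28 value resting on 14 counts. Slc16a1, which encodes the lactate and monocarboxylate carrier MCT1, was at 38.3 CPM in sham and 63.5, 62.1, 219 and 0.527 CPM on days 1, 6, 14 and 28, the last from 12 counts. Both were highest on day 14 and nearly undetected on day 28, in the library where 10.1% of genes that reached 20 CPM in sham were under 1 CPM. The order of the 5 libraries by Slc2a1 was also their order by the vessel marker sum. Slc2a3, which encodes the high-affinity glucose transporter GLUT3, was at 5.12 CPM in sham and 24, 8.85, 23.6 and 99.4 CPM on days 1, 6, 14 and 28. Its ratios were 2.03, 0.69, 2.01 and 4.04, so it was high in the day 28 library in which Slc2a1 was nearly absent. Counts of Slc2a3 per count of Slc2a1 were 0.076 in sham, 0.0184 on day 6 and 162 on day 28, a pair chosen after its values were seen. Slc16a3, the lactate exporter MCT4, stayed between 24.9 and 44.2 CPM and never passed the size rule.

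**Figure D2:**
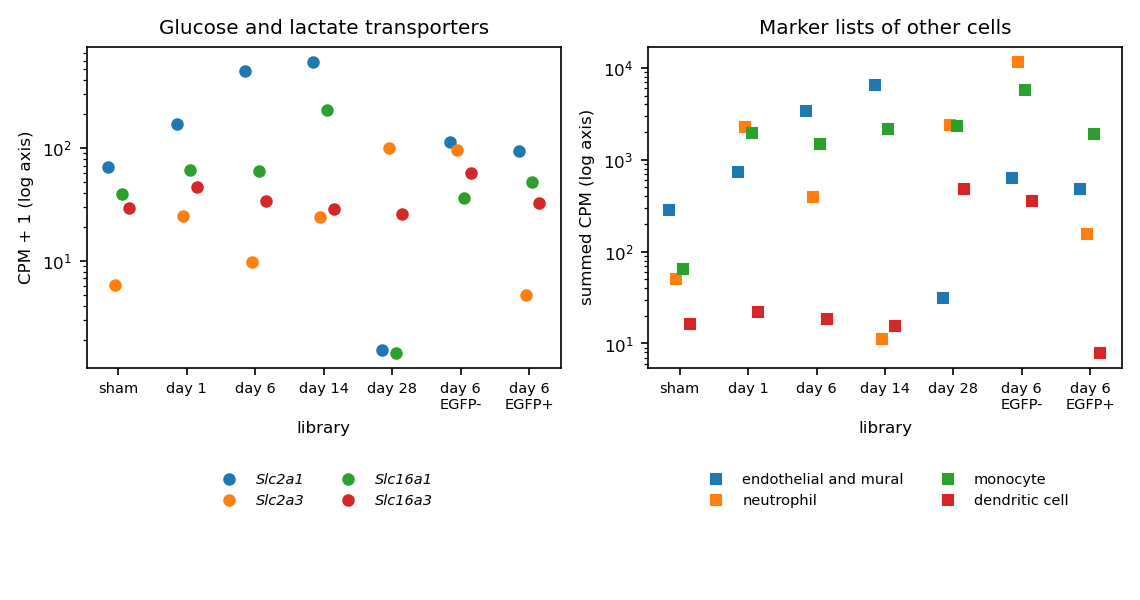
Left, CPM plus 1 of the 4 transporter genes on a log axis in the 7 libraries of the table that holds the wild-type days and the day 6 EGFP states; right, summed CPM of the markers of 4 other cell groups in the same libraries. Slc2a1 is highest at 587 CPM on day 14, where the endothelial and mural markers peak at 6550.2 CPM, and Slc2a3 is highest on day 28 and in the day 6 EGFP-negative library.

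The 3 hexokinases, which phosphorylate glucose, differed from one another. Hk2, the inducible form that binds mitochondria, was at 415 CPM in sham and 227, 313, 177 and 426 CPM on days 1, 6, 14 and 28, and its day 14 ratio of -1.22 was the only one past the size rule. Hk3, a form found mainly in myeloid cells, was at 87.4 CPM in sham and 150.2, 59.5, 33.5 and 9.61 CPM on days 1, 6, 14 and 28, with ratios of -1.36 on day 14 and -3.06 on day 28. Hk1, the form of most tissues, was at 28.4 CPM in sham and 43.4, 30.5, 90.6 and 7.11 CPM on days 1, 6, 14 and 28. Hk1 and Hk2 moved in opposite directions on day 14, where Hk1 passed the rule as higher (1.64). Per kilobase of transcript, Hk2 was the most abundant hexokinase in sham, at a level of 75.2 CPM per kb against 27.2 for Hk3 and 7.37 for Hk1. On day 1 Hk3 was slightly above it, at 46.7 against 41.2 CPM per kb, and Hk2 led again in the later libraries.

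In upper glycolysis, 5 of 8 genes were higher on day 1 and 0 lower. Pfkp, the platelet form of phosphofructokinase, which commits the sugar to glycolysis, was at 3.77 CPM in sham and 32, 9.09, 9.79 and 53.4 CPM on days 1, 6, 14 and 28. Its ratio was 2.79 on day 1 and 3.51 on day 28, the libraries with the highest wild-type neutrophil marker sums. The liver form Pfkl stayed between 28.6 and 49.9 CPM, so counts of Pfkp per count of Pfkl went from 0.113 in sham to 1.06 on day 1 and 1.87 on day 28. The muscle form Pfkm passed only on day 14 (1.86). Pfkfb3, which makes the activator of phosphofructokinase, Gpi1, the isomerase before that step, and Aldoa, an aldolase, passed only on day 1, at 1.28, 1.25 and 1.02. Tpi1, which interconverts the 2 three-carbon sugars, was at 24.5 CPM in sham and 54.3, 58.1, 28.6 and 0.176 CPM on days 1, 6, 14 and 28. Tpi1 passed as higher on days 1 and 6 and as lower on day 28, where it had 4 counts. Aldoc, the brain form of aldolase, was at most 3.71 CPM in the wild-type libraries.

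All 4 detected genes of lower glycolysis were higher on day 1. Pkm, which encodes the muscle-type pyruvate kinases, was at 156 CPM in sham and 992, 349.9, 218 and 258 CPM on days 1, 6, 14 and 28, with ratios of 2.66 on day 1 and 1.16 on day 6. Pgk1, which makes ATP at the first such step of the pathway, was at 32.7 CPM in sham and 162, 63.4, 49.3 and 98.3 CPM on days 1, 6, 14 and 28, and passed on day 1 (2.27) and day 28 (1.56). Gapdh and Pgam1 passed only on day 1 as higher, at 1.20 and 1.14. Gapdh, often used as a reference gene, was at 278 CPM in sham and 641, 472, 345 and 367 CPM on days 1, 6, 14 and 28. Pgam1 had 26 counts on day 14 and a ratio of -3.02 there, with under 20 CPM in both libraries. Eno1, the enolase of most tissues, had 0 counts in 14 of the 15 libraries and 1 count in the other. Its near-identical copy Eno1b was listed with 0 to 329 counts, so how reads of the enolase were shared between the 2 rows is uncertain and no level is given for the enzyme. Gapdh, Pgk1, Pgam1, Pkm, Aldoa, Tpi1 and Ldha also have pseudogene copies, and the handling of reads that fit several places was not given in the sources used here.

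**Figure D3:**
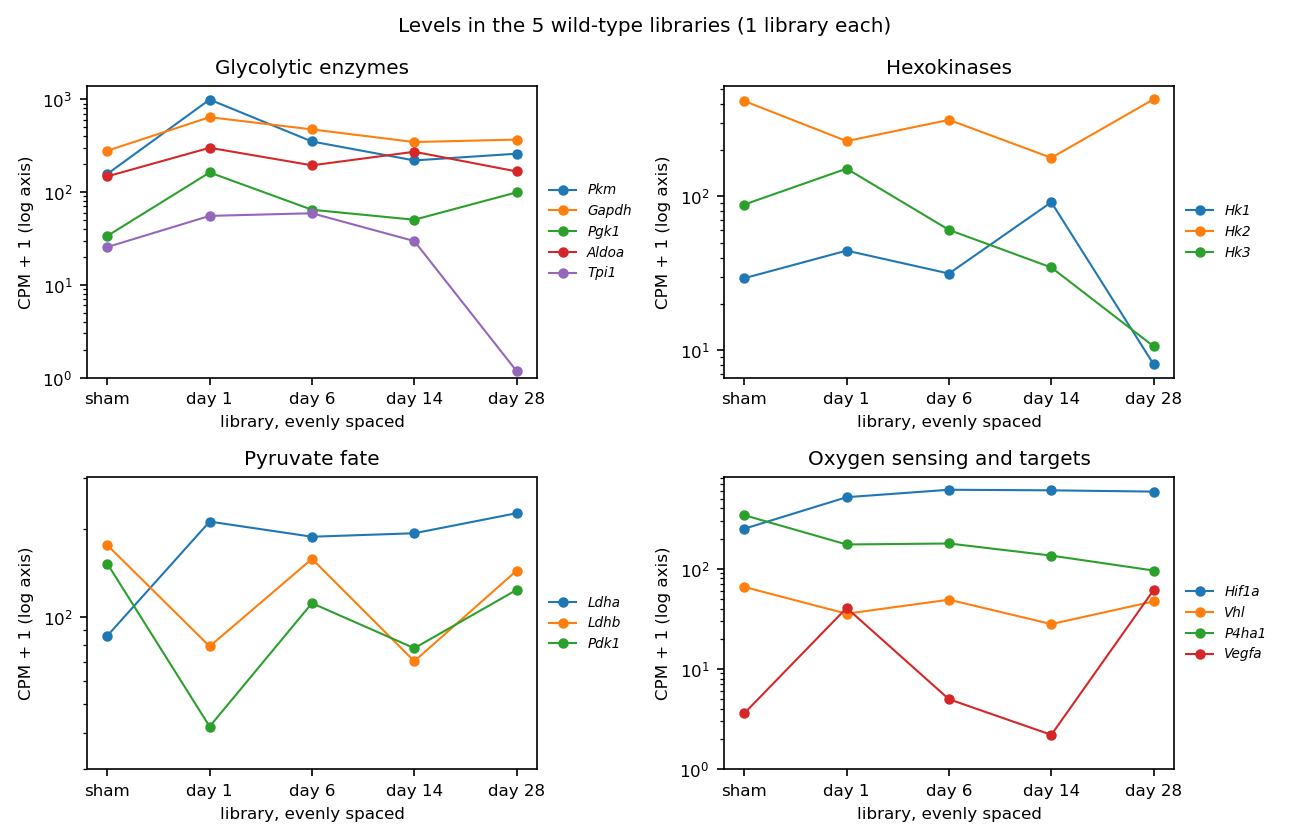
CPM plus 1 on log axes for member genes in the 5 wild-type libraries, in 4 panels by role, with lines joining 1 library per time point and the days spaced evenly rather than to scale. Pkm peaks at 992 CPM on day 1, Tpi1 and Hk1 are lowest on day 28, and Hif1a stays between 516 and 612 CPM after stroke.

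At the branch after pyruvate, both lactate dehydrogenase genes were past the size rule in opposite directions. Ldha, whose subunit favours lactate formation, was at 84.9 CPM in sham and 211, 187, 192 and 225 CPM on days 1, 6, 14 and 28, and passed on all 4 days with ratios of 1.30, 1.13, 1.17 and 1.40. Ldhb, whose subunit favours the use of lactate, was at 175 CPM in sham and 78.1, 157, 69.3 and 143 CPM on days 1, 6, 14 and 28, and passed as lower on day 1 (-1.15) and day 14 (-1.32). Counts of Ldha per count of Ldhb were 0.486 in sham and 2.7, 1.19, 2.77 and 1.58 on days 1, 6, 14 and 28, so every library after stroke had a higher ratio than sham. These counts are not corrected for length, and the pair was chosen after its values were seen. Pdk1, a kinase that blocks pyruvate dehydrogenase, was at 151 CPM in sham and 41, 110.2, 76.9 and 123 CPM on days 1, 6, 14 and 28. Its day 1 ratio of -1.86 was the lowest of all members on that day, although Pdk1 is itself known as a hypoxia target.

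Among the oxygen sensing genes, Hif1a was at 249 CPM in sham and 516, 612, 604 and 587 CPM on days 1, 6, 14 and 28. It passed on all 4 days with nearly the same ratio, from 1.05 to 1.29, and all 4 libraries after stroke lay above sham. Vhl was at 64.7 CPM in sham and 34.5, 48, 27 and 46.2 CPM on days 1, 6, 14 and 28, lower than sham on every day and past the rule on day 14 (-1.23). Egln1, the main prolyl hydroxylase, was at 46.1 CPM in sham and 33.5, 44.6, 62.2 and 39.5 CPM on days 1, 6, 14 and 28 and never passed. Egln3, the inducible prolyl hydroxylase, was at 1.2 CPM in sham and 1.53, 5.94, 0 and 0.0878 CPM on days 1, 6, 14 and 28, too low to be considered in any of the 4 comparisons.

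The 7 hypoxia targets did not move as a block. Ndrg1, a stress and differentiation gene, was at 10.1 CPM in sham and 37.1, 98.7, 317 and 29.8 CPM on days 1, 6, 14 and 28, with ratios of 1.78, 3.16, 4.84 and 1.47. Vegfa, the growth factor of vessels, was at 2.61 CPM in sham and 39.6, 3.98, 1.2 and 60.2 CPM on days 1, 6, 14 and 28, and passed on day 1 (3.49) and day 28 (4.09) only. P4ha1, a collagen prolyl hydroxylase subunit, went the other way, at 341 CPM in sham and 173, 177, 134 and 94.8 CPM on days 1, 6, 14 and 28, and passed as lower on days 14 and 28. Ero1l, an oxidase of the endoplasmic reticulum, passed as higher on day 1 (1.34). Bnip3l, a mitophagy receptor, passed on day 14 (1.06), and its relative Bnip3 was at 24.8 CPM in sham and 17.7, 27.5, 23.1 and 0.79 CPM on days 1, 6, 14 and 28, the last from 18 counts. P4ha2, a relative of P4ha1, was at most 2.75 CPM. The members nearest to the size rule on day 1 were Aldoa inside it (1.02) and P4ha1 outside it (-0.97). Their day 14 counterparts were Bnip3l inside (1.06) and Pdk1 outside (-0.96).

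Other genes of the same pathways, from lists that hold no member, were counted by the same rule, and the shares of all genes given above for each day apply to them too. Of 35 other hypoxia genes, 23, 22, 22 and 21 reached 20 CPM on days 1, 6, 14 and 28. Of these, 9 were higher and 3 lower on day 1, from Lox (2.86) to Ccng2 (-2.37), 5 and 0 on day 6 with Bhlhe40 highest (3.56), 5 and 5 on day 14, and 6 and 6 on day 28, from Bhlhe40 (4.96) to Gbe1 (-4.66). On day 14 the highest was Epas1 (5.22), which encodes HIF-2α and is well known in endothelium, and the lowest was Hif1an (-2.36), the asparaginyl hydroxylase of HIF. Only 6, 5, 6 and 6 of 22 other glycolysis genes, many of them forms of other tissues, reached 20 CPM on the same days. Of these, 2 were higher on day 1 and 0 lower, with Adpgk highest (1.59), 1 and 0 on day 6 with Gpd2 highest (1.65), 3 and 0 on day 14 with Gpd2 highest (2.73), and 3 and 1 on day 28, from Eno3 (2.02) to Pfkfb2 (-1.46). Of 13 other transporters, 7, 7, 6 and 7 reached 20 CPM, and 2 were higher and 3 lower on day 1, from Slc2a12 (1.89) to the fructose transporter gene Slc2a5 (-4.10), a gene known for its expression in microglia. Slc2a5 was the lowest of that list on all 4 days, at -1.97 on day 6, -2.02 on day 14 and -1.97 on day 28, and Slc2a6 was the highest on days 6 (3.45) and 28 (4.63). By number, 2 were higher and 2 lower on day 6, 2 and 3 on day 14, and 2 and 1 on day 28.

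Between EGFP states, Tpi1 was higher and Slc2a3, Pfkp and Vegfa were lower in EGFP-positive cells on day 6, while enzymes of glycolysis and Hif1a made up the 7 members higher on day 14. Whether the effect of EGFP state differed between days was not tested. On day 6, 1 of the 34 genes was higher and 3 were lower in the EGFP-positive library (29 reached 20 CPM). Among all genes at that level, 7.53% were higher and 11.9% lower, and the member median was -0.20 against -0.04. In neither direction did the day 6 count of members exceed the share of all genes. On day 14, 7 were higher and 0 lower (24 reached 20 CPM), against 11.2% and 10.9%, with a median of 0.64 over 32 members against 0.03. The same size rule was used, and each state had 1 library a day. Tpi1 was the only member past the rule on both days, at 43.1 CPM in the EGFP-negative and 98.3 CPM in the EGFP-positive library on day 6 (1.17) and at 129.7 CPM in the EGFP-negative and 266 CPM in the EGFP-positive library on day 14 (1.03). Pkm was at 448 CPM in the EGFP-negative and 721 CPM in the EGFP-positive library on day 6 (0.69) and at 414 CPM in the EGFP-negative and 959 CPM in the EGFP-positive library on day 14 (1.21).

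The 3 members lower in the EGFP-positive library of day 6 were Slc2a3, Pfkp and Vegfa. Slc2a3 was at 94.6 CPM in the EGFP-negative and 4.02 CPM in the EGFP-positive library, a log2 ratio of -4.25. Pfkp was at 44.2 CPM in the EGFP-negative and 15.3 CPM in the EGFP-positive library (-1.47), and Vegfa at 20.9 CPM in the EGFP-negative and 9.27 CPM in the EGFP-positive library (-1.09). Beside them, neutrophil markers summed to 11709 CPM in the EGFP-negative and 156 CPM in the EGFP-positive library, monocyte markers to 5691 and 1884 CPM, and dendritic cell markers to 357 and 7.88 CPM. Dissociation genes summed to 10080.1 and 3501 CPM, with 10 of 12 lower in the EGFP-positive library. Markers of border macrophages went the other way, with sums of 471 and 697 CPM and 3 of 8 higher. All 10 neutrophil markers with at least 20 CPM were lower in the EGFP-positive library, and Elane, Mpo and Retnlg were at 0 there. The part of these gene groups in the 3 members was not tested.

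On day 14 the 7 higher genes were Hk1, Pgk1, Gpi1, Pkm, Pgam1, Tpi1 and Hif1a. Hk1 was at 8.56 CPM in the EGFP-negative and 64.4 CPM in the EGFP-positive library (2.77), Pgk1 at 32.5 CPM in the EGFP-negative and 97.3 CPM in the EGFP-positive library (1.55) and Gpi1 at 103 CPM in the EGFP-negative and 251 CPM in the EGFP-positive library (1.27). Hif1a was at 226 CPM in the EGFP-negative and 456 CPM in the EGFP-positive library (1.01) on day 14 and at 629 CPM in the EGFP-negative and 681 CPM in the EGFP-positive library (0.11) on day 6. The 3 that lay nearest the rule, Tpi1, Pgam1 and Hif1a, fell outside it when libraries were scaled by total counts. Slc2a3, Vegfa, Aldoc and Ndrg1 were listed at 0 counts in the EGFP-negative library of day 14 and at 137, 188, 250 and 16 counts in the EGFP-positive one. Of 6247 genes that reached 20 CPM in the EGFP-positive library of day 14, 1.79% were under 1 CPM in the EGFP-negative one. In the reverse direction it was 0.209% of 6231 genes. That EGFP-negative library also had 10 of 11 neutrophil markers and 9 of 12 endothelial and mural markers at 0, with sums of 0.157 and 30.7 CPM against 1101 and 447 CPM in the EGFP-positive library, and their part was not tested.

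Hk2 was at 235 CPM in the EGFP-negative and 182 CPM in the EGFP-positive library on day 6 and at 159 CPM in the EGFP-negative and 249.5 CPM in the EGFP-positive library on day 14, and Hk3 at 62.5 CPM in the EGFP-negative and 99.8 CPM in the EGFP-positive library and at 188 CPM in the EGFP-negative and 197 CPM in the EGFP-positive library. Ldha was at 249.5 CPM in the EGFP-negative and 209 CPM in the EGFP-positive library on day 6 and at 295 CPM in the EGFP-negative and 493 CPM in the EGFP-positive library on day 14. Ldhb was at 60.6 CPM in the EGFP-negative and 69.9 CPM in the EGFP-positive library and at 722 CPM in the EGFP-negative and 725 CPM in the EGFP-positive library. None of these 4 passed the rule on either day. Slc2a1 lay at 112 and 92.8 CPM on day 6 and at 70.6 and 111 CPM on day 14, in the EGFP-negative and EGFP-positive library in turn. In the same order, Pdk1 lay at 77.5 and 53.2, then 226 and 195 CPM. Vhl lay at 38.1 and 32.9, then 96.3 and 106 CPM. For the prolyl hydroxylases, Egln1 lay at 32 and 38.6, then 6.2 and 4.76 CPM, and Egln3 at 9.98 and 3.71, then 7.22 and 8.13 CPM.

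**Figure D4:**
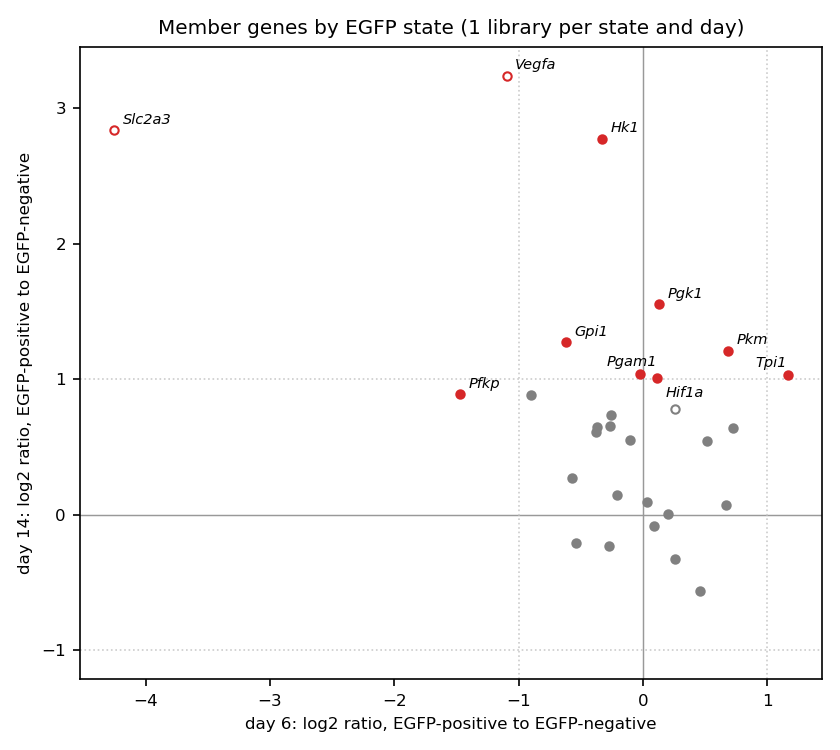
Log2 ratio of EGFP-positive to EGFP-negative (CPM plus 1) on day 6 (x axis) and day 14 (y axis) for the 29 members with at least 20 CPM in 1 of the 4 libraries. Named red points passed the size rule on either day, dotted lines mark a ratio of 1 in size, and the 3 open circles had 0 counts in the EGFP-negative library of day 14, so their y values are no measure of a fold; Tpi1 alone lies above 1 on both axes.

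A joint fit of the 4 EGFP libraries used edgeR's quasi-likelihood test with terms for day and EGFP state, which leaves 1 residual degree of freedom. No member was called, and neither was any of the 12842 genes tested (0% higher, 0% lower), while 193 genes had an unadjusted p under 0.05. DESeq2 called 28 genes and 0 members, and limma-voom called 0 genes. The members with an unadjusted p under 0.05 in edgeR's test were Tpi1, whose log2 value was 1.12 ± 0.30 (SE) with an adjusted p of 1, and Pkm, at 0.95 ± 0.32 (SE) with an adjusted p of 1, both higher in the EGFP-positive library on both days. The day term holds the table and the sequencer as well as time.

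In the Yy1 comparison, 4 members were higher in Yy1-deleted microglia, P4ha1, Hk3, Hk2 and Ldha, and none was called lower. Yy1 itself was at 75.9, 51 and 57.8 CPM in the floxed controls and 32.4, 28.8 and 38.6 CPM in the Yy1-deleted libraries, so that the groups did not overlap. Its log2 fold change was -0.88 ± 0.28 (SE, n = 3 and 3) in edgeR's quasi-likelihood test, with a Benjamini-Hochberg adjusted p of 0.128, so the deleted gene's own transcript did not pass the threshold of 0.05. Of the 34 members, 31 had enough counts to be tested (not Aldoc, Eno1 and P4ha2). The test called 1.55% of the 12387 genes tested higher and 1.05% lower, and 4 of 31 members higher and 0 lower. At an unadjusted p under 0.05 in the same test, 7 members were higher and 3 lower. Counting either direction, 10 of the 31 members and 1748 of the 12387 genes passed that unadjusted cut. DESeq2 and limma-voom each called 5 members higher and 0 lower. With total counts in place of TMM scaling, the calls over all genes shifted from 192 higher and 130 lower to 127 higher and 193 lower, and the members called went from 4 to 2. The median log2 fold change of the members tested was 0.25, against -0.02 for all genes tested. The labels call these biological replicates.

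P4ha1 was at 111, 139.7 and 112 CPM in the floxed controls and 341, 233 and 296 CPM in the Yy1-deleted libraries. Every Yy1-deleted library lay above every control, and the fitted difference was 1.27 ± 0.18 (SE) on the log2 scale, with edgeR's adjusted p at 7.8e-04. Hk2 was at 208, 260.2 and 213 CPM in the floxed controls and 445, 412 and 392 CPM in the Yy1-deleted libraries, a difference of 0.88 ± 0.15 (SE) in log2 (edgeR adjusted p = 0.00256). P4ha1 and Hk2 were called in all 12 alternative fits. Hk3 was at 67.4, 60.4 and 51.2 CPM in the floxed controls and 106, 125 and 103 CPM in the Yy1-deleted libraries, with 0.90 ± 0.21 (SE) in log2 (edgeR adjusted p = 0.0284). Ldha was at 101, 108 and 101 CPM in the floxed controls and 182, 204 and 138 CPM in the Yy1-deleted libraries, with 0.76 ± 0.19 (SE) in log2 (edgeR adjusted p = 0.0386). The groups of Hk2, Hk3 and Ldha did not overlap either, but Hk3 and Ldha were called in 6 of the 12 alternatives each. Leaving out any of the 3 floxed libraries or Yy1-deleted library 1 or 2 ended both calls, with edgeR adjusted p between 0.0584 and 0.149 for Hk3 and between 0.0982 and 0.208 for Ldha. Total-count scaling gave edgeR adjusted p = 0.0607 for Hk3 and 0.0876 for Ldha.

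**Figure D5:**
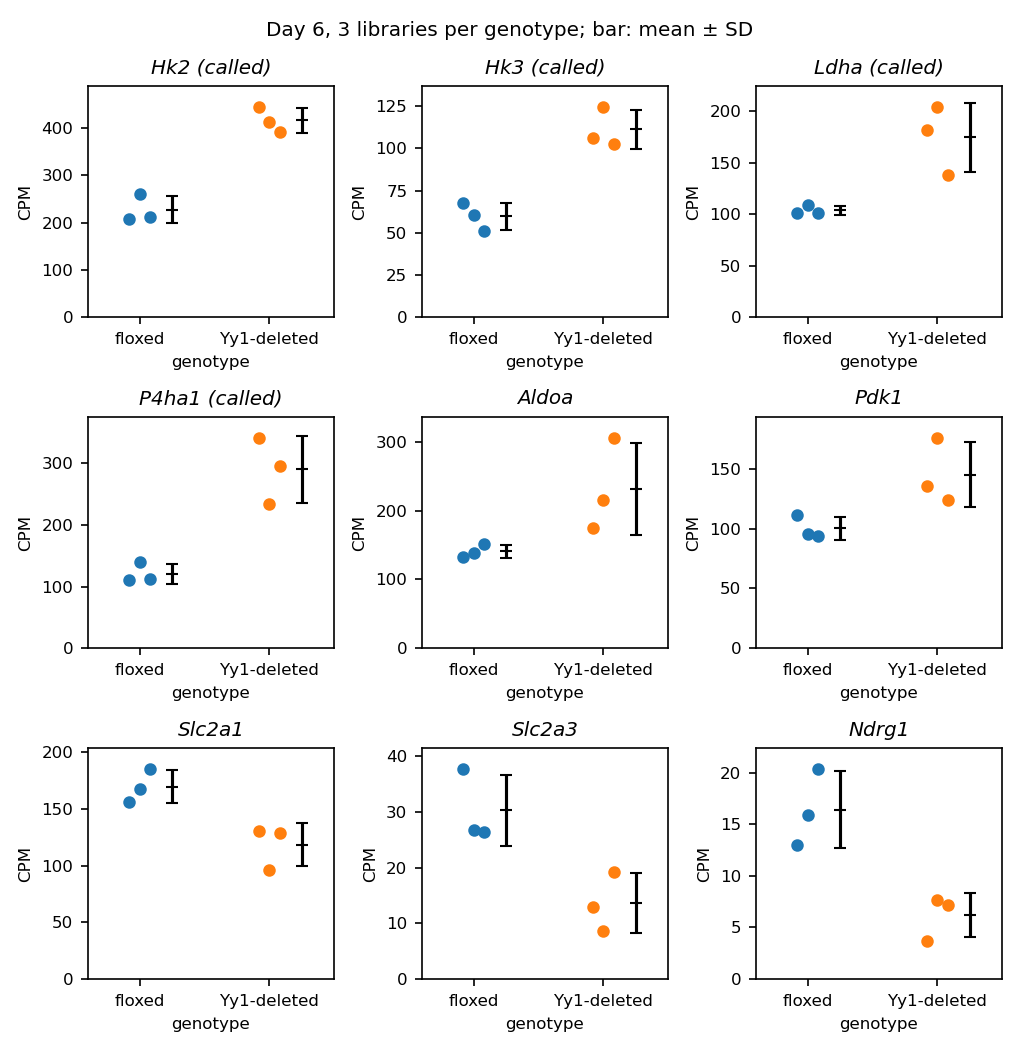
CPM of 9 member genes in the 3 floxed control and 3 Yy1-deleted libraries of day 6 (points), with the mean and SD of each genotype beside them. The 4 genes marked as called had an edgeR adjusted p under 0.05. All 9 were taken from the members whose groups do not overlap, and members with overlapping groups are not shown.

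Of the 31 members tested, 8 had every Yy1-deleted library above every control, 3 had every one below, and the rest overlapped. Of all genes tested, 9.45% and 11.6% did not overlap in those directions, so the members below were near that share. The other genes above were Aldoa, Pfkfb3, Pdk1 and Slc16a3. Aldoa was at 133, 139 and 152 CPM in the floxed controls and 174, 215 and 306 CPM in the Yy1-deleted libraries (0.72 ± 0.20, edgeR adjusted p = 0.0675) and was called in 5 of 12 alternatives. Pdk1 was at 111, 95.7 and 93.5 CPM in the floxed controls and 136, 176 and 124 CPM in the Yy1-deleted libraries (0.54 ± 0.19, edgeR adjusted p = 0.181). The 3 below were Slc2a1, Slc2a3 and Ndrg1, and none was called in any of the 12 alternatives. Slc2a1 was at 156, 168 and 185 CPM in the floxed controls and 131, 96.5 and 129 CPM in the Yy1-deleted libraries (-0.51 ± 0.18, edgeR adjusted p = 0.179). Slc2a3 had means of 30.3 ± 6.42 and 13.6 ± 5.38 CPM (SD, n = 3 each) in controls and Yy1-deleted libraries, and Ndrg1 of 16.4 ± 3.71 and 6.18 ± 2.13 CPM (SD, n = 3 each).

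Oxygen sensing genes overlapped between genotypes. Hif1a was at 329, 438 and 379.8 CPM in the floxed controls and 490.4, 377 and 493 CPM in the Yy1-deleted libraries (0.25 ± 0.15, edgeR adjusted p = 0.537). Vhl was at 38.8, 56.6 and 57.5 CPM in the floxed controls and 56.9, 95.1 and 28.5 CPM in the Yy1-deleted libraries (edgeR adjusted p = 0.859), Egln1 at 27, 31.8 and 29.3 CPM in the floxed controls and 50.4, 33.3 and 20.9 CPM in the Yy1-deleted libraries (edgeR adjusted p = 0.859) and Egln3 at 6.61, 5.01 and 5.51 CPM in the floxed controls and 5.69, 12.8 and 17.1 CPM in the Yy1-deleted libraries (edgeR adjusted p = 0.603). Vegfa was at 0.586, 3.72 and 7.11 CPM in the floxed controls and 2.55, 0 and 2.36 CPM in the Yy1-deleted libraries, and Ldhb at 93, 114 and 124 CPM in the floxed controls and 103, 153 and 168 CPM in the Yy1-deleted libraries (edgeR adjusted p = 0.503). No difference was called in these genes, and an adjusted p above 0.05 does not show that they are alike. Counts of Ldha per count of Ldhb averaged 0.950 ± 0.136 in controls and 1.30 ± 0.467 in Yy1-deleted libraries (SD, n = 3 each) and overlapped. The lower-glycolysis enzymes Gapdh, Pgk1, Pgam1 and Pkm had log2 fold changes of 0.19, 0.67, 0.10 and 0.23, all with overlapping groups. Gapdh is the member whose counts were not whole in all 6 libraries of this table.

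Markers moved with genotype too. All 10 microglial markers were called higher in Yy1-deleted libraries, and their sum was 15318 to 16529 CPM in controls and 24487 to 26524 CPM in Yy1-deleted libraries. Of the 9 monocyte markers tested, 3 were called lower, with sums of 934 to 1336 and 641 to 754 CPM. Of 10 endothelial and mural markers tested 0 were called, with a median log2 fold change of -0.48 and sums of 608 to 862 and 419 to 561 CPM, which do not overlap, as for Slc2a1. Rgs5 and Col1a1 were at 0 in all 3 Yy1-deleted libraries. Border macrophage marker sums were 89.7 to 113 and 22.2 to 59.9 CPM, with F13a1, which is on that list and the monocyte list, called lower, and 3 of 12 dissociation genes were called higher. Neutrophil marker sums overlapped, at 309 to 344 and 246 to 385 CPM. The part of these cells and genes in the members' differences was not tested.

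Among the other pathway genes, edgeR called 0 of 15 tested glycolysis genes in either direction. It also called 0 of 16 genes of the citric acid cycle and 0 of 13 genes of pyruvate entry. Over all genes tested, 1.55% were called higher and 1.05% lower, so 0 calls in lists this short are near that share. Of 29 other hypoxia genes tested, 0 were called higher and 3 lower, the lowest being Hif3a, which was at 82, 34.3 and 28.2 CPM in the floxed controls and 0, 0 and 0 CPM in the Yy1-deleted libraries. Of 9 other transporters tested, Slc2a5 was called higher, at a log2 fold change of 2.70, and it was at 36.1, 35.5 and 28.7 CPM in the floxed controls and 181, 240.0 and 228 CPM in the Yy1-deleted libraries. It is the same fructose transporter gene that was lowest of its list on every wild-type day.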

How the data were processed

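RNA from sorted microglia of 15 samples was made into libraries with an Ovation SoLo kit, per the labels' protocols. Submitters' processing notes name the tools STAR, featureCounts and edgeR and the builds GRCm38 and mm10; which did what, and the annotation, are not given in the sources used here. The time course and both EGFP tables hold whole, unnormalized counts of reads as the authors deposited them. The Yy1 table, as deposited, held values of which 3.55% to 4.75% per library were not whole, and was treated here as a table of expected counts and rounded before testing. Among low counts (1 to 20), 68.7% to 90.9% were even in the whole-count tables but 44.2% to 48.2% in the Yy1 table. Date-like names, carried by 27 genes, were kept in library sizes. The series' text says 3 biological replicates each, but the tables of the time course and EGFP states held 1 column per group.

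Within each table, counts were scaled by TMM (edgeR 4.0.16, R 4.3.3). Unreplicated comparisons used log2 ratios of CPM plus a pseudocount of 1, which understates changes of low genes. The Yy1 comparison used filterByExpr and edgeR's quasi-likelihood F-test (two-sided) with no replicate block, adjusted by Benjamini-Hochberg over all genes tested. These p-values reflect only how these 6 libraries vary. DESeq2 1.42.0 and limma 3.58.1 (voom), other scalings and filters, other pseudocounts and each Yy1 library left out were alternatives. The edgeR test was also run on simulated counts. These varied less than the data, whose common dispersion was 0.332 for Yy1 and 0.803 for EGFP, so no conclusion is drawn from them. Members and lists were chosen with earlier results of these data known. Named with full values were members called in the Yy1 comparison, the 4 highest and 4 lowest past the size rule in each unreplicated comparison, and Hif1a, Vhl, Egln1, Egln3, Slc2a1, Hk2, Hk3, Ldha, Ldhb, Vegfa and Pdk1; other pathway lists gave counts and their highest and lowest genes, of which 1 is not reported here. Lengths and positions were those of GENCODE M21 principal transcripts. Exons of 12 members overlap another gene, 3 of them on the same strand (Pfkm, Pkm and Hif1a), so their counts are uncertain to that extent.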

Additional observations from a re-analysis of the deposited data

How the results depend on the processing

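Member counts past the size rule kept within 1.5 times under both other pseudocounts, RLE scaling and a minimum of 5 CPM. At a log2 ratio of at least 2, members higher and lower than sham numbered 5 and 0 on day 1, 2 and 0 on day 6, 4 and 0 on day 14, and 3 and 5 on day 28; between EGFP states, 0 higher and 1 lower passed on day 6 and 1 higher and 0 lower on day 14. At a minimum of 50 CPM, 3 members were lower on day 28 and 1 was lower in EGFP-positive cells on day 6. Total-count scaling left 4 members higher in EGFP-positive cells on day 14 and 2 members called higher in the Yy1 comparison. RLE scaling moved the median of all genes by 0.17 on day 14 and 0.12 on day 28, and total counts by 0.11 on day 14, by -0.10 between EGFP states on day 14 and by -0.11 in the Yy1 comparison, against a main median of -0.02. A minimum of 10 counts in both libraries, chosen after seeing the data, dropped Tpi1 on day 28.

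Leaving out 1 Yy1 library gave 2 to 4 members called higher, and the genes called in all ran from 97 (without floxed library 1; 165 without floxed library 2) to 317, against 322. No filter gave 575, DESeq2 753 and limma-voom 481 genes. Values near 0 changed sign without being called: with total counts Pgam1 -0.00230 and Slc16a1 -0.10, with no filter Slc16a1 -0.000957, with limma-voom Hk1 -0.0848 and Slc16a1 -0.0393. Over the 12 alternatives, the left-out libraries included, Pgam1 ran from -0.22 to 0.46, Slc16a1 from -0.38 to 0.30, Hk1 from -0.54 to 0.64, Bnip3 from -0.70 to 0.18, Gpi1 from -0.036 to 0.33, Egln1 from -0.11 to 0.51 and Vhl from -0.25 to 0.58. The cause was not tested.

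With a replicate block, 5 members were called higher and 0 lower, and 254 genes higher and 249 lower, with Hk1 at -0.12 and Slc16a1 at -0.0749. Same-numbered Yy1 libraries correlated at -0.01, -0.04 and -0.03 in their deviations from the group means, and no library correlated best with its own number. With so few libraries per group, these values cannot decide whether same-numbered libraries shared a litter or day, which the labels do not state.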

Other observations

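The next steps after pyruvate were described from lists of other genes. Among all genes with at least 20 CPM, 12.5%, 10.6%, 22.6% and 27% were higher on days 1, 6, 14 and 28. Those lower were 10.6%, 2.9%, 20.2% and 24% on the same days, and the counts below stand beside these shares. Of 16 genes of the citric acid cycle, 16 had at least 20 CPM on day 1, when 1 was higher (Mdh2, 1.10) and 0 lower, and 0 of the 14 at that level passed the size rule on day 6. On day 14, 4 of 15 were higher and 1 lower, from Sdhb (1.48), a subunit of succinate dehydrogenase, to Suclg1 (-1.91). On day 28, 1 of 14 was higher and 7 lower, from Cs (1.27), citrate synthase, to Idh3a (-4.70), in the library in which 10.1% of the genes expressed in sham were under 1 CPM. Of 8 genes of the pentose phosphate pathway, 6, 6, 6 and 7 reached 20 CPM on days 1, 6, 14 and 28, and 2 were higher on day 1 (Taldo1 highest, 1.53) and 0 on day 6, 1 was lower on day 14 (Tkt, -1.02), and 2 were higher and 3 lower on day 28, from Pgls (1.74) to Rpe (-1.48). Of 13 genes of pyruvate entry into mitochondria, 5, 5, 6 and 6 reached it, 0 passed on days 1 and 6, 1 was higher on day 14 (Pdk2, 1.14), 2 were higher and 1 lower on day 28, from Mpc2 (2.51) to Dlat (-4.50), and 2 were higher in EGFP-positive cells on day 14, with pyruvate carboxylase, Pcx, highest (4.60). Between EGFP states, most of the other hypoxia genes did not pass the rule. On day 6, 21 reached 20 CPM. Of these, 0 were higher and 4 lower in the EGFP-positive library (Ddit4 lowest, -2.36), where 11.9% of all genes were lower. On day 14, 7 were higher and 0 lower of 20 (Epas1 highest, 5.67), above the 11.2% of all genes that were higher. The list medians of -0.04 on day 6 and 0 on day 14 cover all 35 listed genes, also those under 20 CPM. The vessel markers summed to 625 and 482 CPM in the EGFP-negative and EGFP-positive libraries of day 6, with 1 of 12 lower, and on day 14 7 of 12 were higher in the EGFP-positive library. Their part was not tested.

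Among members, counts of Egln3 per count of Egln1 were 0.026 in sham, 0.133 on day 6 and 0 on day 14 in the wild-type libraries. They were 1.16 and 1.71 in the EGFP-negative and EGFP-positive libraries of day 14, where Egln1 was at 6.2 and 4.76 CPM. Counts of Hk3 per count of Hk2 were 0.211 in sham, 0.19 on day 14 and 0.0226 on day 28 in the wild-type libraries. They were 1.18 in the EGFP-negative and 0.789 in the EGFP-positive library of day 14. The EGFP libraries of day 14 are not compared with the wild-type ones here. These pairs were chosen after their values were seen.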
